A study of Mus musculus with 14 samples.

Results

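The genes described here were 6 SLAM family receptors encoded in 1 cluster on chromosome 1 (*Ly9*, *Slamf7*, *Cd48*, *Slamf1*, *Cd84*, and *Slamf6*) and 2 SH2 domain adaptors, *Sh2d1a* on the X chromosome and *Sh2d2a* on chromosome 3. They were chosen by name, and all 8 had a value in every one of 14 RNA-Seq samples of activated mouse CD4+ T cells, among 15118 genes tested in the first experiment and 13949 in the second. In activated HDAC1cKO-HDAC2HET CD4+ T cells, *Slamf6* fell 4.61-fold, *Slamf1* 2.38-fold, and *Cd84* 2.32-fold, whereas *Sh2d1a*, which encodes the adaptor SAP that these receptors share, rose 2.72-fold. *Ly9* fell 1.26-fold and *Sh2d2a* rose 1.18-fold. *Cd48* and *Slamf7* did not pass the test. In HDAC1cKO CD4+ T cells, none of the 7 members tested passed.

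The first experiment held 4 WT and 4 HDAC1cKO-HDAC2HET samples, and the second held 3 WT and 3 HDAC1cKO samples, all from C57BL/6 mice. HDAC1cKO-HDAC2HET mice carried floxed alleles at both copies of *Hdac1* and at 1 copy of *Hdac2*, HDAC1cKO mice carried floxed *Hdac1* alleles only, and *Cd4*-Cre, which acts in the whole αβ T cell lineage from the thymus on, deleted them. By the methods of the study, naive CD4+ T cells from young adult mice of both sexes were isolated by flow cytometry, then stimulated for 3 days through CD3 and CD28 with IL-2 but no polarizing cytokines, with littermates as WT controls. Cells of the second experiment were also restimulated with anti-CD3 for 12 hours, so genotype and stimulation differed together between the mutants of both experiments. For these restimulated cells the study refers to earlier work. For the first experiment, the study describes 4 independent batches of WT and of mutant cells, all prepared on the same day. Nothing in the labels tied a sample to 1 mouse, so the p-values measure the spread between these samples, which may be technical in part.

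SLAM receptors are immunoglobulin superfamily proteins on leukocytes, most of which bind their own kind on a neighbouring cell. Phosphorylated tyrosine motifs in their tails bind SAP, which brings in the kinase Fyn, while tails without SAP can bind inhibitory phosphatases instead. In CD4+ T cells this system is known for the contact of T follicular helper cells with B cells and for the development of NKT cells, and loss of SAP causes X-linked lymphoproliferative disease in humans.

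Expression was deposited as FPKM, fragments scaled to transcript length and to all mapped fragments, on which levels of different genes can be compared. Cufflinks assembled each sample separately, and of the 112 member values 109 came from assembled loci without a name that were matched to the gene by position. The Cufflinks bounds on a member's value were within 2.65% to 22.59% of it, widest for *Slamf7* and at most 10.17% for the other members. Estimated depth ran from 25000000 to 58600000 fragments per sample. The deletion was visible in each mutant sample. *Hdac1* was at 6.65 to 10.7 FPKM in HDAC1cKO-HDAC2HET samples against 76.3 to 79.6 in their WT samples, and at 8.52 to 12.1 in HDAC1cKO samples against 72.3 to 81.1. *Hdac2* was at 34.0 to 37.0 FPKM in HDAC1cKO-HDAC2HET samples against 58.2 to 60.3 in WT. Summed over 6 CD4+ T cell markers (*Cd3d*, *Cd3e*, *Cd3g*, *Cd4*, *Thy1*, *Cd5*), samples held 1108.3 to 1393.1 FPKM.

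The cluster spans 364.5 kb of chromosome 1 in the mm10 build, from 171588624 to 171953170, in the order *Ly9*, *Slamf7*, *Cd48*, *Slamf1*, *Cd84*, *Slamf6*. *Ly9* and *Slamf7* lie on the minus strand and the other receptors on the plus strand. RefSeq promoter windows of 300 bases on GRCm38.p6, the same build, running from 250 bases before to 50 bases after a gene's start, were found for 5 of the 8 members: *Slamf1* at chr1:171766882-171767181, *Cd84* at chr1:171839447-171839746, *Slamf6* at chr1:171917212-171917511, *Cd48* at chr1:171681742-171682041, and *Slamf7* at chr1:171648950-171649249, the last on the minus strand. Shown 5′ to 3′ on the plus strand are those of the 3 receptors that fell by more than 2-fold and, for contrast, that of *Cd48*, which did not pass. Capitals mark matches to the letters TGTGGT (RUNX factors) or TGACTCA (AP-1) on either strand.
Slamf1: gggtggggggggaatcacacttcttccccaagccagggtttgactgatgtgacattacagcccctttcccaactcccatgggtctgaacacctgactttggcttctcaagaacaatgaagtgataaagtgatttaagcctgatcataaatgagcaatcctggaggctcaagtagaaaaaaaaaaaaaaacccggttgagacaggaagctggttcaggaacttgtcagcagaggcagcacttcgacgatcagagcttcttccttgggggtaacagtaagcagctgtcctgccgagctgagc
Cd84: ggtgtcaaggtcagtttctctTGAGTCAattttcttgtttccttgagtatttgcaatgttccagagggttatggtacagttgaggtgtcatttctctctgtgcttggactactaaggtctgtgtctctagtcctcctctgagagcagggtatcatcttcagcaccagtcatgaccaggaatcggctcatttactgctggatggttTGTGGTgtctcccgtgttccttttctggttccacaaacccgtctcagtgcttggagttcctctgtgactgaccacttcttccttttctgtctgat
Slamf6: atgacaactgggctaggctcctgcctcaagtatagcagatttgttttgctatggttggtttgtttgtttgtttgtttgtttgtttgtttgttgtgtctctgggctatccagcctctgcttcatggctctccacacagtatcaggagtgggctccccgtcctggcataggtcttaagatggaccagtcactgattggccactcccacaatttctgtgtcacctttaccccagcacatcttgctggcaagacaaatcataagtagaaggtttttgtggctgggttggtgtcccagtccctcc
Cd48: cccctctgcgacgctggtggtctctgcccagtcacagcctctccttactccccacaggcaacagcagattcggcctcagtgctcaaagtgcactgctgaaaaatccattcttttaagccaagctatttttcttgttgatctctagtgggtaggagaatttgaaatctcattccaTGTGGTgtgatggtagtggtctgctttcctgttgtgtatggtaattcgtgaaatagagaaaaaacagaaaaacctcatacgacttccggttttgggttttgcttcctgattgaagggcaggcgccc

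The RUNX letters were present in the *Cd84* and *Cd48* windows and in 16.8% of 32851 promoter windows in all. The AP-1 letters were present in the *Cd84* window shown and in that of *Slamf7*, and in 5.2% of all windows. The T-box letters AGGTGTGA were in none of the 5 windows and in 1.28% of all. None of these motifs overlapped in a window shown. Thus, neither of the 2 motifs seen divided the receptors that fell from those that did not pass. A match of this kind is a description of the letters only.

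In activated WT CD4+ T cells of the first experiment, the receptors differed widely in level. *Ly9* (CD229) was highest, at 62.2 FPKM ± 1.54 (SD, n = 4), followed by *Cd48* at 55.3 ± 3.12 and *Slamf6* (Ly108) at 53.1 ± 2.89. The ranges of *Cd48* and *Slamf6* overlapped. *Slamf1* (CD150) was at 38.5 ± 1.99 and *Cd84* at 34.8 ± 6.55, and these ranges overlapped as well. *Slamf7* (CRACC), a receptor known from NK cells and plasma cells, was near the bottom of the family at 4.07 ± 0.497. The adaptor *Sh2d1a* was at 48.8 ± 5.07 FPKM and *Sh2d2a* at 79.8 ± 5.27.

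**Figure D1:**
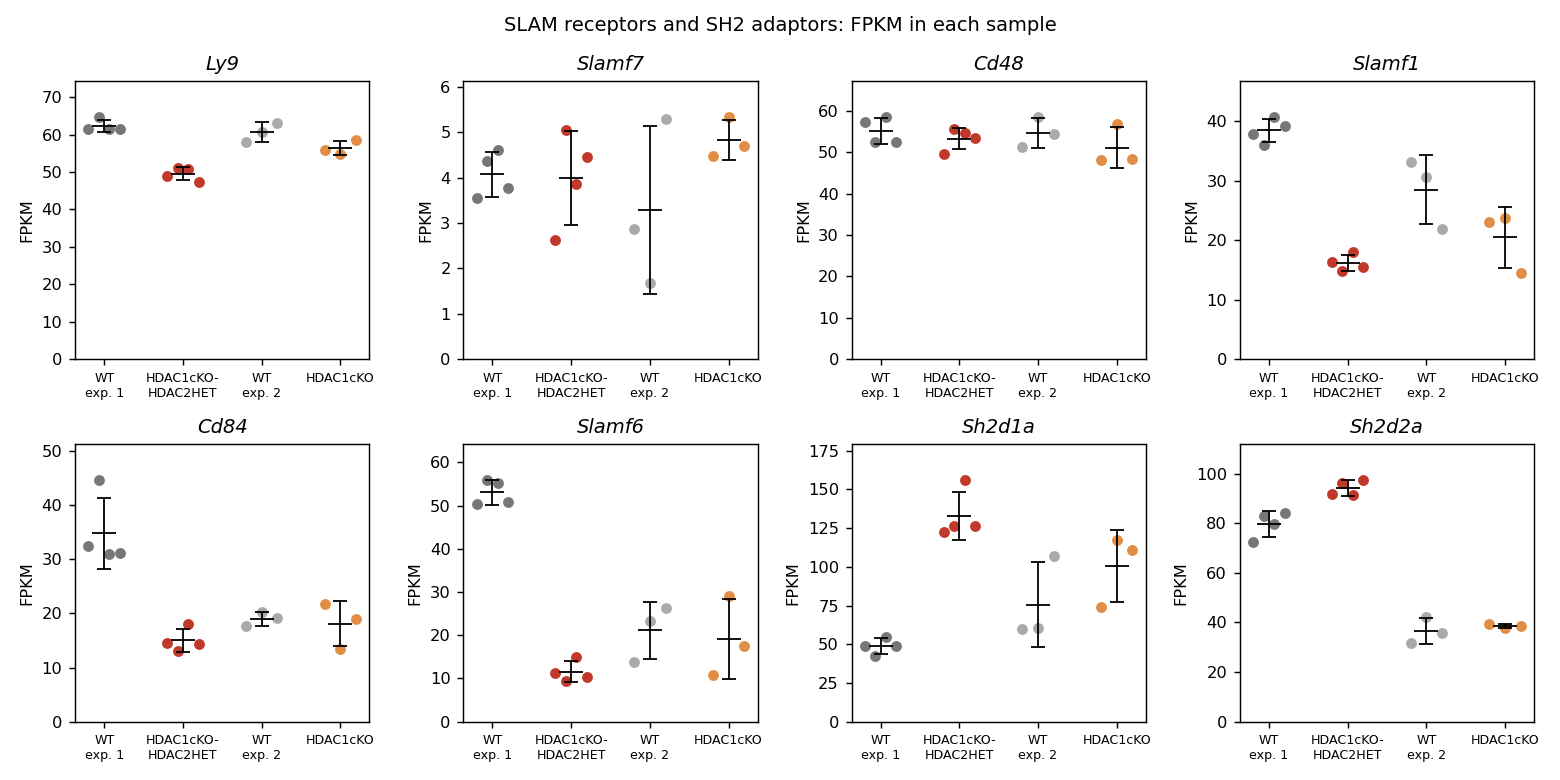
FPKM of each receptor and adaptor in each sample (points), with the group mean and SD (black), for WT and HDAC1cKO-HDAC2HET samples of the first experiment (n = 4 each) and WT and HDAC1cKO samples of the second (n = 3 each). *Slamf6*, *Slamf1*, *Cd84*, and *Ly9* lie lower and *Sh2d1a* and *Sh2d2a* higher in every HDAC1cKO-HDAC2HET sample than in every WT sample beside them, whereas the WT and HDAC1cKO points of the second experiment overlap in each panel.

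The first comparison asked how the receptors and adaptors stood in CD4+ T cells with 1 *Hdac2* allele as their only remaining *Hdac1* or *Hdac2* allele. *Slamf6*, a homophilic receptor of activated and follicular helper T cells, was at 50.3, 55.9, 55.2, and 50.8 FPKM in the WT samples and at 11.3, 9.5, 15.0, and 10.3 FPKM in HDAC1cKO-HDAC2HET samples. The lowest WT value was thus over 3 times the highest mutant value. The log2 fold change was -2.22 (SE 0.13, limma adjusted p = 8.9e-06), the strongest among the members in this comparison.

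*Slamf1*, the founding member of the family, was at 37.9, 36.1, 40.7, and 39.3 FPKM in WT and at 16.3, 14.9, 18.0, and 15.5 FPKM in mutant samples. Both groups were tight and far apart, with a log2 fold change of -1.25 (SE 0.07, limma adjusted p = 5.19e-06). *Cd84*, which SAP also binds in follicular helper T cells, was at 32.5, 44.6, 30.9, and 31.2 FPKM in WT and at 14.5, 13.1, 18.0, and 14.4 FPKM in mutant samples. WT replicate 2 stood above the other WT samples, and the groups did not overlap. The log2 fold change of *Cd84* was -1.20 (SE 0.14, limma adjusted p = 0.000237), and it was -1.08 without that sample.

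*Ly9* was at 61.4, 64.6, 61.5, and 61.5 FPKM in WT and at 49.0, 51.0, 50.7, and 47.2 FPKM in mutant samples. Its fall was small but its samples were close together, so that the log2 fold change of -0.33 (SE 0.03) had a limma adjusted p of 0.000107. *Cd48*, a receptor held in the membrane by a lipid anchor, without a tail to bind SAP, was at 57.3, 52.6, 58.5, and 52.6 FPKM in WT and at 49.7, 55.6, 54.7, and 53.4 FPKM in mutant samples. These groups overlapped, and the 95% interval of the log2 fold change ran from -0.17 to 0.07 (limma adjusted p = 0.455). *Slamf7* was at 3.55, 4.36, 4.61, and 3.76 FPKM in WT and at 2.63, 5.05, 3.85, and 4.45 FPKM in mutant samples. Here the spread was wider, and the interval from -0.52 to 0.40 leaves room for changes of the size seen for *Ly9* (limma adjusted p = 0.833).

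The adaptors moved the other way. *Sh2d1a* was at 48.6, 42.6, 55.0, and 49.1 FPKM in WT and at 122.5, 126.7, 156.1, and 126.2 FPKM in mutant samples. Every mutant sample was more than 2 times the highest WT sample, with a log2 fold change of 1.44 (SE 0.10, limma adjusted p = 1.64e-05). *Sh2d2a*, which encodes TSAd, an adaptor of the kinase Lck that is related to SAP by its SH2 domain but lies outside the SAP family, was at 72.4, 82.8, 79.8, and 84.2 FPKM in WT and at 91.6, 96.3, 91.3, and 97.4 FPKM in mutant samples. Its groups lay close to each other without overlapping in FPKM, with a log2 fold change of 0.24 (SE 0.05, limma adjusted p = 0.00535). However, its Cufflinks bounds implied 2168 to 2399 fragments in WT and 1726 to 2495 in mutant samples. Estimated depth was 37800000 to 56200000 and 25000000 to 58600000 fragments in these samples. Relative to depth, the *Sh2d2a* fragments of both groups thus overlapped. The part of assembled transcript length in this rise was not tested.

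Among the 6 receptors, 4 were thus lower and 0 higher at an adjusted p of at most 0.05, beside 27.6% of all 15118 genes lower and 24.2% higher. With a fold change of at least 2 as well, 3 receptors were lower and 1 adaptor higher, beside 5.57% and 5.6% of all genes. In 6 of the 8 members the groups did not overlap, as in 50.4% of all genes tested. The median log2 fold change was -0.77 over the receptors, 0.84 over the adaptors, and -0.05 over all genes. For each of the 6 members that passed, a 2-sided exact permutation test over the 70 arrangements of the samples gave p = 0.0286, the smallest it can give.

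**Figure D2:**
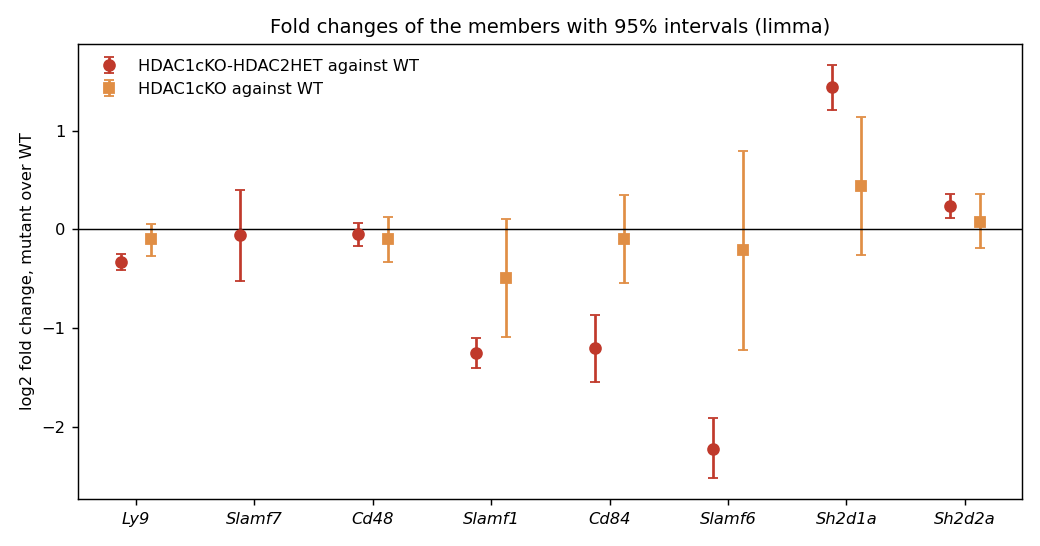
Log2 fold change of mutant over WT (y axis) with its 95% interval for each member (x axis), from limma on log2(FPKM + 0.1), for HDAC1cKO-HDAC2HET (circles) and HDAC1cKO (squares). *Slamf6* is lowest at -2.22 and *Sh2d1a* highest at 1.44 in the first comparison, and the interval of every square includes 0; *Slamf7* was not tested in HDAC1cKO cells.

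The shift changed which receptors made up the family's transcripts. The 6 receptors summed to 239.2 to 258.1 FPKM in WT and 143.4 to 160.3 FPKM in HDAC1cKO-HDAC2HET samples. *Slamf6* made up 21.4% ± 0.534 (SD, n = 4) of the sum in WT and 7.67% ± 1.27 in mutant samples. *Slamf1* went from 15.5% ± 1.11 to 10.8% ± 0.644 and *Cd84* from 14% ± 2.23 to 9.99% ± 0.999. *Cd48* then led with 35.7% ± 1.54, up from 22.3% ± 1.46, and *Ly9* followed with 33.1% ± 1.27, up from 25.1% ± 0.518. Since shares must sum to 100%, the rise of *Cd48* in share came with no change in level that passed the test.

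The receptors were set against *Sh2d1a* within each sample as the log2 of the ratio of their FPKM values, each with 0.1 added. In WT, *Slamf6* and *Sh2d1a* were nearly balanced, with a log2 ratio of 0.12 ± 0.18 (SD, n = 4), from 0.0 to 0.39. In HDAC1cKO-HDAC2HET samples it was -3.53 ± 0.16, from -3.72 to -3.37, a ratio 12.6-fold lower. The ratio was 6.45-fold lower for *Slamf1* and 6.25-fold lower for *Cd84*. Even for receptors with little or no change of their own, it was lower by 3.41-fold for *Ly9*, 2.82-fold for *Slamf7*, and 2.81-fold for *Cd48*, which is the rise of *Sh2d1a* in the main. All 6 ratios were without overlap between the groups, each with p = 0.0286 in a 2-sided exact permutation test. These p-values were not adjusted over the 6 receptors, which share the same *Sh2d1a* values. The groups of *Sh2d1a* did not overlap by themselves, so a gene without change can give the same result, as *Cd48* and *Slamf7* did. No share over all genes stands beside this count, which thus says little about the receptors.

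**Figure D3:**
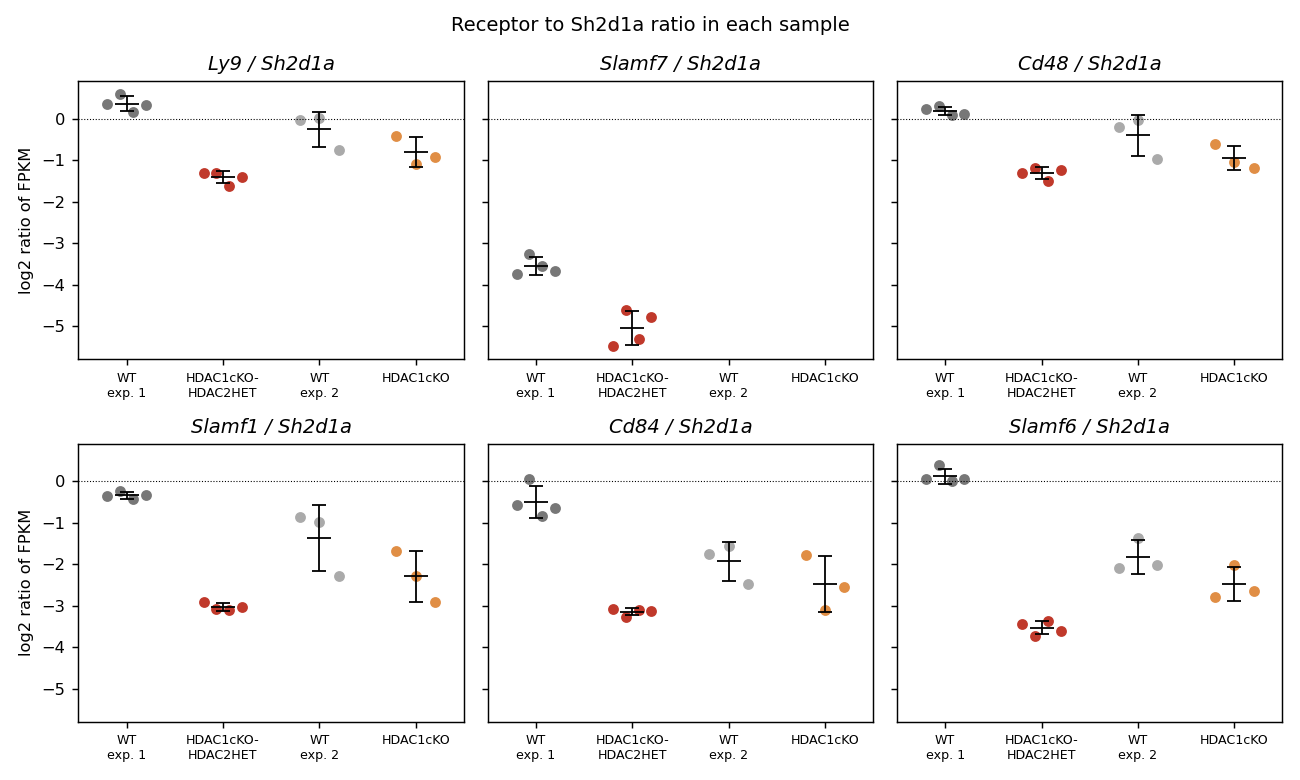
Log2 ratio of each receptor's FPKM to that of *Sh2d1a* (y axis, 0.1 added to both) in each sample, by group (x axis), with the mean and SD in black; the dotted line marks equal FPKM. For *Slamf6* the WT samples of the first experiment lie at 0.0 to 0.39 and the HDAC1cKO-HDAC2HET samples at -3.72 to -3.37, while in the second experiment WT and HDAC1cKO samples overlap for all 5 receptors shown.

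The second comparison set HDAC1cKO against its own WT samples after restimulation. None of 7 members passed at an adjusted p of at most 0.05 in limma, and none had an unadjusted p under 0.05. Few genes passed at all, 10 of 13949 or 0.0717%, although 1997 had an unadjusted p under 0.05. In 0 of the 7 members were the groups without overlap, as against 22.3% of all genes.

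*Slamf1* was at 33.1, 30.6, and 21.9 FPKM in WT and at 23.1, 23.8, and 14.5 FPKM in HDAC1cKO samples. WT replicate 3 fell among the mutant samples, and the log2 fold change was -0.49 (95% interval -1.09 to 0.11, limma adjusted p = 0.423). *Slamf6* was at 13.8, 23.4, and 26.4 FPKM in WT and at 10.7, 29.1, and 17.6 FPKM in HDAC1cKO samples. The highest and lowest samples were both mutant, so that the interval from -1.22 to 0.80 was the widest among the members (limma adjusted p = 0.843). *Cd84* was at 17.7, 20.2, and 19.1 FPKM in WT and at 21.7, 13.5, and 19.0 FPKM in HDAC1cKO samples, again with the mutant samples around those of WT. Its log2 fold change was -0.10 (95% interval -0.54 to 0.35, limma adjusted p = 0.836).

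*Ly9* was at 58.0, 60.8, and 63.2 FPKM in WT and at 55.8, 54.9, and 58.6 FPKM in HDAC1cKO samples, with a log2 fold change of -0.10 (95% interval -0.27 to 0.06, limma adjusted p = 0.524). *Cd48* was at 51.3, 58.5, and 54.5 FPKM in WT and at 48.1, 56.9, and 48.5 FPKM in HDAC1cKO samples, with an interval from -0.33 to 0.13 (limma adjusted p = 0.651). The coefficient of variation within a group was at most 9.73% for *Cd48* and 4.32% for *Ly9*, as against at most 5.65% and 3.57% in the first experiment. *Slamf7* was at 2.87, 1.68, and 5.30 FPKM in WT and at 4.47, 5.33, and 4.70 FPKM in HDAC1cKO samples. It was not tested, because the assembled loci of these samples covered unlike stretches of the gene, shortest in WT replicates 1 and 2.

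*Sh2d1a* was at 59.6, 60.4, and 107.1 FPKM in WT and at 74.1, 117.3, and 110.6 FPKM in HDAC1cKO samples. WT replicate 3 lay among the mutant samples, and the log2 fold change was 0.44 (95% interval -0.26 to 1.14, limma adjusted p = 0.531) and 0.72 without that replicate. *Sh2d2a* was at 31.7, 42.3, and 35.9 FPKM in WT and at 39.5, 37.9, and 38.5 FPKM in HDAC1cKO samples, all mutant values lying inside the WT range (limma adjusted p = 0.757). *Xist*, which is transcribed from the inactive X chromosome of female cells, was at 42.9, 0.0188, and 33.2 FPKM in the WT samples here and at 0.0435 FPKM or less in the 3 HDAC1cKO samples, so the sexes were unlike between the groups. In the first experiment *Xist* was at 58.9 to 65.2 FPKM in WT and 26.0 to 33.7 FPKM in mutant samples. *Sh2d1a* is X-linked, and the part of sex in its values was not tested in the first experiment. In the second, WT replicate 2 was the only WT sample without *Xist*. With sex as a covariate, the HDAC1cKO samples were therefore set against that 1 sample, at a log2 fold change of 0.71 for *Sh2d1a*. That fit cannot separate sex from the sample itself.

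Against *Sh2d1a*, the ratios of all 5 receptors tested were lower on average in HDAC1cKO samples, by 1.45-fold to 1.90-fold, and each overlapped between the groups. The 2-sided exact permutation p was 0.2 for *Slamf1*, *Ly9*, *Cd48*, and *Cd84* and 0.3 for *Slamf6*, and with 3 samples against 3 it cannot go below 0.1.

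The fold changes of both experiments were compared with a contrast over all 14 samples. The change in HDAC1cKO-HDAC2HET was lower than that in HDAC1cKO by 2.00 on the log2 scale for *Slamf6* (95% interval of the difference -2.91 to -1.09, limma adjusted p = 0.00762), by 1.11 for *Cd84* (-1.63 to -0.59, limma adjusted p = 0.00901), and by 0.23 for *Ly9* (-0.36 to -0.09, limma adjusted p = 0.0275). For *Sh2d1a* it was higher by 1.00 (0.36 to 1.64, limma adjusted p = 0.0383). *Slamf1* missed the threshold, with a difference of -0.76 (-1.28 to -0.24, limma adjusted p = 0.0514), as did *Cd48* at 0.05 (-0.17 to 0.27, limma adjusted p = 0.786) and *Sh2d2a* at 0.16 (-0.10 to 0.41, limma adjusted p = 0.412). Thus 4 of 7 members passed, beside 15.6% of the 12376 genes tested. With sex, read from *Xist*, as a covariate, the directions were kept but none of these 4 passed. The differences were then -1.81 for *Slamf6*, -1.02 for *Cd84*, -0.22 for *Ly9*, 0.73 for *Sh2d1a*, and 0.37 for *Sh2d2a*. This fit rested on WT replicate 2 of the second experiment, the only WT sample without *Xist*, so it cannot separate sex from that sample. The call of *Sh2d1a* was lost on leaving out any of 9 of the 14 samples and that of *Ly9* on leaving out any of 3 (limma adjusted p of up to 0.0875 and 0.0634). The assembled locus of *Sh2d1a* also differed, covering the whole gene in the first experiment and 0.79 of its span, a complete annotated transcript, in the second. That of *Slamf6* covered the whole gene in the first experiment and 0.88 to 0.92 of its span in the second. Genotype, restimulation, sex as read from *Xist*, and other differences between experiments made separately cannot be told apart as the source of these differences.

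Levels in the 4 groups, set side by side without a test because the experiments were made separately, showed the same order of means for *Slamf1*, *Slamf6*, *Ly9*, and *Cd84*. In FPKM, WT of the first experiment was highest, followed by WT of the second, HDAC1cKO, and HDAC1cKO-HDAC2HET. For *Slamf1*, the Cufflinks bounds implied 1205 to 2486 fragments in HDAC1cKO-HDAC2HET samples and 1005 to 1599 in WT samples of the second experiment. Estimated depth was 25000000 to 58600000 and 28800000 to 38500000 fragments in these samples. Relative to depth, the *Slamf1* fragments of these 2 groups overlapped, although their FPKM did not. The part of assembled transcript length in the order was not tested. In FPKM, the WT groups overlapped for *Ly9* but not for *Slamf1*, *Slamf6*, or *Cd84*, the restimulated groups overlapped for all 4, and the mutant groups overlapped for *Slamf1*, *Slamf6*, and *Cd84* but not for *Ly9*. For *Sh2d1a* the order was exactly turned round, from 132.9 FPKM ± 15.6 (SD, n = 4) in HDAC1cKO-HDAC2HET over 100.7 ± 23.3 (n = 3) in HDAC1cKO and 75.7 ± 27.2 (n = 3) in WT of the second experiment to 48.8 ± 5.07 (n = 4) in WT of the first, and of these neighbours only the restimulated groups overlapped. The FPKM of *Sh2d2a* divided by experiment rather than genotype. It was at 79.8 and 94.1 in the groups of the first and 36.7 and 38.6 in those of the second. However, its Cufflinks bounds implied 2168 to 2399 fragments in WT samples of the first and 1679 to 2330 in those of the second. Estimated depth was 37800000 to 56200000 and 28800000 to 38500000 fragments in these samples. Relative to depth, the fragments of these WT groups thus overlapped. The part of assembled transcript length in this gap was not tested. *Cd48* was the most even member, with group means from 51.2 to 55.3 FPKM.

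Genes around the cluster were examined from 500 kb before *Ly9* to 500 kb after *Slamf6*. Along the cluster, the log2 fold changes in HDAC1cKO-HDAC2HET cells were -0.33 for *Ly9*, -0.06 for *Slamf7*, -0.05 for *Cd48*, -1.25 for *Slamf1*, -1.20 for *Cd84*, and -2.22 for *Slamf6*, so the 3 receptors with a fall of more than 2-fold were neighbours at the distal end. *Gm10521*, a protein-coding gene model between *Cd84* and *Slamf6*, fell with them at a low level, from 0.597 to 0.206 FPKM on average (log2 fold change -1.18, limma adjusted p = 0.000188). The nearest tested gene beyond *Slamf6* was *Vangl2*, a planar cell polarity gene, which rose by 0.80 on the log2 scale at a similarly low level (limma adjusted p = 0.000868). On the other side, *Alyref2* was lower by 0.68 (limma adjusted p = 0.000485). Of 41 other protein-coding genes in the window, 25 were tested, of which 8 were higher, 8 lower, and 9 did not pass. Of all genes, 24.2% were higher and 27.6% lower. The median log2 fold change of the 25 genes was -0.14. Beside *Gm10521*, only *Cfap126* (log2 fold change -1.45, limma adjusted p = 0.000706) and *Igsf8* (1.28, limma adjusted p = 7.85e-07) passed with a fold change of at least 2. In HDAC1cKO cells, 0 of 26 tested genes of the window passed in limma, beside 0.0717% of all genes.

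**Figure D4:**
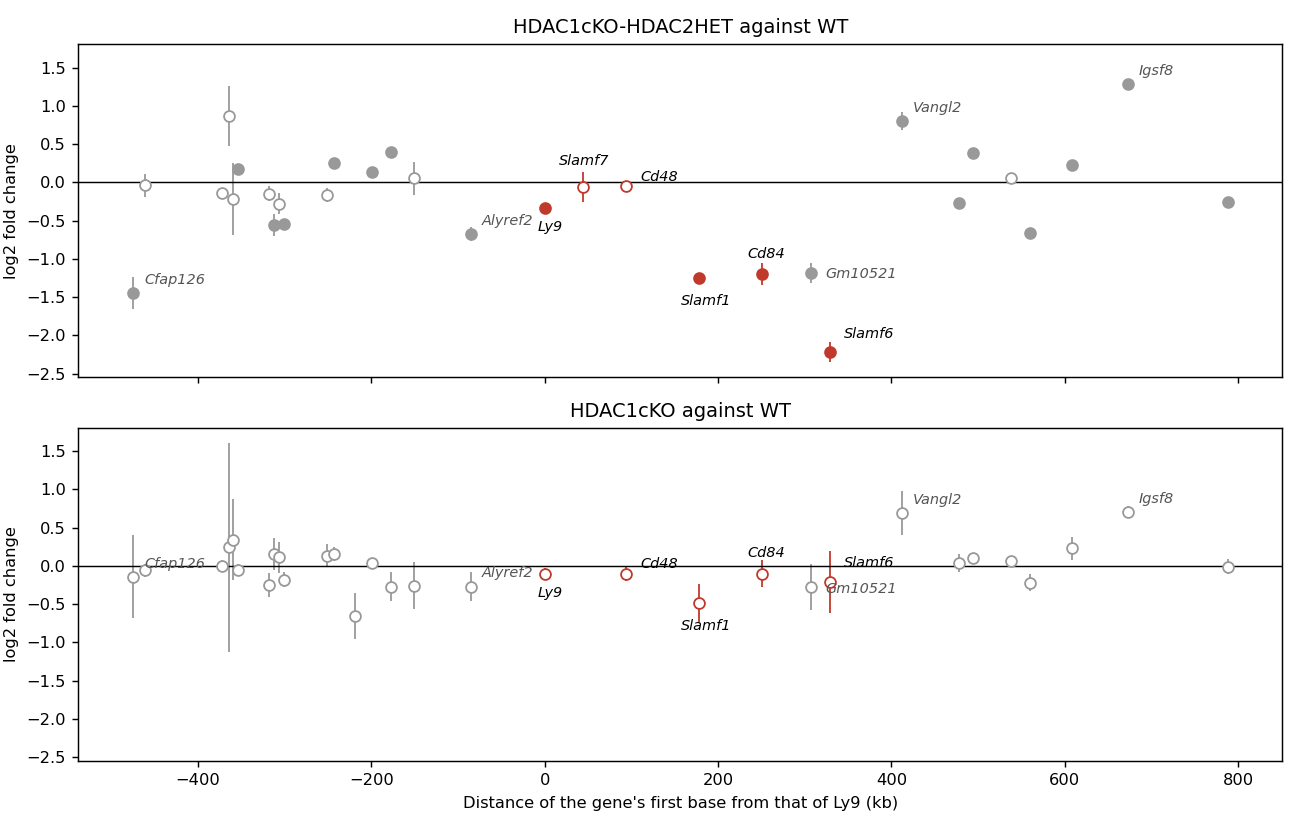
Log2 fold change with its SE (y axis) of the tested protein-coding genes around the SLAM cluster against the distance of a gene's lowest coordinate from that of *Ly9* (x axis, kb), for HDAC1cKO-HDAC2HET (top) and HDAC1cKO (bottom); red points are receptors, grey points other genes, and filled points have an adjusted p of at most 0.05. *Slamf1*, *Cd84*, and *Slamf6* lie at -1.25, -1.20, and -2.22 in the top panel, with *Gm10521* among them at -1.18, and no point is filled in the bottom panel.

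Of the family's other genes, *Slamf9*, a receptor with a short tail that lies 522.2 kb beyond *Slamf6*, was at 4.29 to 5.46 FPKM in WT and 0.44 to 0.829 FPKM in HDAC1cKO-HDAC2HET samples (log2 fold change -2.77, SE 0.17, limma adjusted p = 1.05e-05). In the second experiment it was at 2.7 to 3.43 FPKM in WT and 0.888 to 1.76 FPKM in HDAC1cKO samples (log2 fold change -1.21, limma adjusted p = 0.187). The changes differed by -1.56 (limma adjusted p = 0.00607). *Slamf8* had at most 0.238 FPKM in any sample and did not pass (limma adjusted p = 0.212 in the first experiment). *Cd244*, the receptor of *Cd48* on NK cells, which overlaps *Ly9* in the annotation, was at no more than 0.0353 FPKM. *Sh2d1b1* and *Sh2d1b2*, which encode the SAP-related adaptors EAT-2 and ERT, were at no more than 0.0871 FPKM where listed. *Cd2*, whose product binds CD48 on mouse T cells, was at 272.4 to 314.1 FPKM in WT samples and rose to between 397.8 and 423.3 FPKM in HDAC1cKO-HDAC2HET samples (log2 fold change 0.49, limma adjusted p = 0.000115).

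Among 9 genes of the signalling chain behind SAP, 8 were tested in HDAC1cKO-HDAC2HET cells, and 2 were higher, 2 lower, and 4 did not pass. Of all genes, 24.2% were higher and 27.6% lower. The median log2 fold change was -0.04 in these 8 as against -0.05 over all genes. *Dok1*, an inhibitory docking protein, rose from 11.8 FPKM ± 0.998 (SD, n = 4) to 23.7 ± 0.955 (log2 fold change 1.01, limma adjusted p = 1.09e-05). The others that passed are named after their values were seen. *Fyn* itself fell from 127.4 ± 5.27 to 93.3 ± 3.7 FPKM (log2 fold change -0.45, limma adjusted p = 6.52e-05), *Rasa1*, a Ras GTPase-activating protein, fell by 0.94 on the log2 scale (limma adjusted p = 2.58e-05), and *Nfkb1* rose by 0.23 (limma adjusted p = 0.00117). Of 4 genes for phosphatases and the kinase that bind receptor tails without SAP, *Ptpn6* (SHP-1) fell by 0.34 (limma adjusted p = 0.000769), and *Ptpn11*, *Inpp5d*, and *Csk* did not pass. Of the partners of TSAd, *Lck* fell by 0.37 (limma adjusted p = 2.58e-05), and *Nck1* had no value in this experiment. In HDAC1cKO cells, 0 of 9, 0 of 3, and 0 of 2 tested genes of these lists passed in limma, beside 0.0717% of all genes.

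SLAM receptors are also expressed by B cells and myeloid cells, so markers of these cells were measured in the same samples. By the study's methods, cells with CD11b, CD11c, B220, Gr1, NK1.1, Ter-119, or CD8α on their surface had been depleted with beads before naive CD4+ T cells were sorted. The 3 B cell markers with a value (*Ms4a1*, *Cd79a*, *Cd79b*) summed to 0.497 to 0.945 FPKM in WT and 2.64 to 4.15 FPKM in HDAC1cKO-HDAC2HET samples. *Cd79b* made up most of the mutant sum and passed the test (log2 fold change 2.87, limma adjusted p = 1.06e-05). *Cd79a* did not pass (log2 fold change 0.35, limma adjusted p = 0.391), and *Ms4a1* was at no more than 0.123 FPKM. *Cd8b1* and *Cd8a* summed to 3.28 to 5.96 FPKM in WT and 11.7 to 15.2 FPKM in mutant samples, and both passed. The part of these markers in the receptor values was not tested. Of the CD4+ T cell markers, 5 of 6 were lower and *Thy1*, named after its value was seen, was higher. Of all genes, 27.6% were lower and 24.2% higher. The median log2 fold change of these markers was -0.44. Sums over 5 myeloid markers were at most 0.571 FPKM, with *Lyz2* listed at 0 in all samples of 3 groups, and sums over 3 NK and NKT cell markers were at most 0.0579 FPKM, with *Klra8* listed at 0 throughout. The 5 erythroid and platelet markers summed to at most 0.506 FPKM, with *Ppbp* listed at 0 throughout. In these bulk samples, fewer cells that express a receptor and less of its RNA per cell cannot be told apart.

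The tested genes most like a member across the 14 samples, after the mean of each experiment was subtracted, were *Nfkbid* (Pearson r = 0.985), *Smco4* (0.973), and *Cd74* (0.969) for *Slamf6*. They were *Stn1* (0.99), *Slc25a20* (0.97), and *Zfp1* (0.967) for *Slamf1*, *Atxn1* (0.978), *Lancl3* (0.975), and *Rbbp5* (0.973) for *Cd84*, and *Zfp397* (0.983), *Acot6* (0.975), and *Rwdd3* (0.974) for *Ly9*. For *Sh2d1a* they were *Avpi1* (0.976), *Dlgap4* (0.972), and *Nomo1* (0.971), and for *Sh2d2a* *Incenp* (0.966), *Ap5z1* (0.943), and *Pip5k1c* (0.939). For *Cd48*, with no change between genotypes that passed, the closest were *Kctd15* (0.835), *Rps26* (0.828), and *Pold2* (0.824). No other member was among these genes. Points of a group share their genotype and culture, so these correlations, over 12375 genes compared, mostly describe a like difference between groups.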

How the data were processed

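RNA was measured in 14 samples of activated CD4+ T cells. By the study's methods, which describe the 3-day cells, the authors sequenced stranded mRNA libraries as 50-bp single reads, aligned them to mm10 with TopHat, and obtained FPKM with Cufflinks. For the restimulated cells the study refers to earlier work. Genes listed by name numbered 36473 to 38322 per sample in the first experiment and 23878 to 24642 in the second. The submitters' processing notes for the first experiment instead name FastQC, STAR 2.5.2b, Subread 1.5.1, R 3.4, and edgeR. No counts were used here.

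Genes without a named entry were read from unnamed loci sharing at least 0.8 of the joint span with the gene or an annotated transcript (GENCODE vM21, GRCm38). By the gene's span alone, *Sh2d1a* would have had no value in the second experiment. Loci listed at 0 and failed estimates were left out. The log2 of FPKM plus 0.1 was fitted per experiment with limma 3.58.1 (R 4.3.3), which let variances follow intensity, and p-values were adjusted by Benjamini-Hochberg over all genes averaging 0.1 FPKM or more. Fold changes are ratios of mean FPKM unless given as log2, a scale that understates changes of low genes. Ratios and single members were tested by 2-sided exact permutation. Depth was estimated from the Cufflinks bounds of low genes, of which 66.5% to 76.9% gave whole fragments within 0.05, so it is approximate. No 2 samples were identical, and the fits were tested on simulated data.

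The members and gene lists were chosen with earlier results of these data known. Beside the members, the text names genes of lists of at most 5, genes of longer lists and of the window that passed with a fold change of at least 2, the nearest tested neighbours, and the 3 genes most like each member. Outside this rule, *Fyn*, *Rasa1*, *Nfkb1*, and *Thy1* were named after their values were seen, and *Lyz2* because it was listed at 0. Protein sequences were not analysed here, and some genes of the lists are not reported here. Alternatives changed the pseudocount, filter, scaling, variance model, weights, locus match, sex, replicate block, joint fit, and each sample in turn. Plots were drawn with matplotlib 3.10.9.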

Additional observations from a re-analysis of the deposited data

Results flagged for a closer look

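Among the 16 groups of 4 samples examined for the 8 members, the highest sample lay far from the other 3 in 3 groups, where chance gives about 1 in 20. *Cd84* was at 44.6 FPKM in WT replicate 2 of the first experiment, against 30.9 to 32.5 FPKM in the other WT samples. Its Cufflinks bounds implied 1840 fragments in replicate 2, at an estimated depth of 47800000. In the other WT samples they implied 1548 to 1896, at 37800000 to 56200000. The part of assembled transcript length in this gap was not tested. *Sh2d1a* was at 156.1 FPKM in HDAC1cKO-HDAC2HET replicate 3, the sample with the lowest estimated depth, against 122.5 to 126.7 FPKM. *Ly9* was at 64.6 FPKM in WT replicate 2, against 61.4 to 61.5 FPKM, a gap that is large only beside 3 nearly equal values.

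The fold changes of 4 members differed between HDAC1cKO-HDAC2HET and HDAC1cKO by limma's test of the difference. On the log2 scale the difference was -2.0 for *Slamf6*, -1.11 for *Cd84*, -0.23 for *Ly9*, and 1.00 for *Sh2d1a*, with adjusted p-values of 0.00762, 0.00901, 0.0275, and 0.0383. Genotype, restimulation, sex as read from *Xist*, and, for *Sh2d1a* and *Slamf6*, the assembled locus differed together between the experiments.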

How the results depend on the processing

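In HDAC1cKO-HDAC2HET cells, 6 members passed under each of 19 alternatives, and 0 of the members passed in HDAC1cKO cells under each of 18. Members could not be tested with genes listed by name in every sample only, where 474 genes were higher and 543 lower in the first comparison, 1 higher and 5 lower in the second, and 55 differed. The sex covariate could not be fitted in the first experiment, where all samples held *Xist*. In the second experiment and in the contrast it rested on WT replicate 2 of the second, the only WT sample without *Xist*. Counts and calls with it thus cannot be read as adjusted for sex.

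Counts in HDAC1cKO cells, 2 higher and 8 lower, were unstable. Genes higher numbered 5 with a pseudocount of 0.01, 1 without the filter, 9 with a filter at 1 FPKM, 9 with equal medians, 0 without the trend, 16 with array weights, 24 with the sex covariate, 642 with both experiments together, and 2 to 24 with a sample left out. Genes lower numbered 14 with array weights, 40 with the sex covariate, 710 with both experiments together, and 7 to 31 with a sample left out, the highest counts coming without WT replicate 3 of that experiment.

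The number of genes that differed between the experiments was 1935, as against 1217 with the sex covariate and 1439 to 2345 with a sample left out. The number of members was 4, as against 2 to 5 with a sample left out, 2 without WT replicate 2 of the first experiment or HDAC1cKO-HDAC2HET replicate 4. With the sex covariate, which rested on WT replicate 2 of the second experiment, none of the 4 passed. *Sh2d1a* passed under 14 of 25 alternatives. It missed the threshold with the sex covariate, without the filter, without WT replicate 1, 2, or 4 of the first experiment, without any 1 HDAC1cKO-HDAC2HET sample, without WT replicate 3 of the second experiment, and without HDAC1cKO replicate 1, with differences of 0.72 to 1.04. *Ly9* missed it with the sex covariate, without the trend (-0.23, limma adjusted p = 0.0535), and without WT replicate 2 of the first experiment, HDAC1cKO-HDAC2HET replicate 4, or HDAC1cKO replicate 3 (-0.21 to -0.20). *Slamf1* passed with a filter at 1 FPKM, with array weights (limma adjusted p = 0.0464 and 0.0441), and without WT replicate 1 of the second experiment (-0.88) or HDAC1cKO replicate 3 (-0.99).

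Against *Sh2d2a* in place of *Sh2d1a*, the *Slamf7* ratio changed by -0.30 in HDAC1cKO-HDAC2HET samples (exact permutation p = 0.2).

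Values that did not pass changed sign as follows. *Slamf7* in the first experiment was at 0.07 with array weights and -0.18 to 0.13 with a sample left out. In HDAC1cKO cells, *Slamf6* ranged from -0.57 to 0.15, *Cd84* from -0.24 to 0.10, and *Sh2d2a* from -0.01 to 0.19 with a sample left out. With sex as a covariate, which set the HDAC1cKO samples against WT replicate 2 alone, *Sh2d2a* was at -0.13.

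Deviations of same-numbered samples correlated at 0.004 to 0.148 in the first experiment and -0.102 to -0.010 in the second. Those of samples with unlike numbers correlated at -0.084 to 0.063 and -0.066 to 0.083. With so few samples, these values cannot settle whether the numbers pair the samples. With a replicate block, 3323 genes were higher and 3779 lower in the first comparison, 0 higher and 5 lower in the second, and 4 members differed between the experiments. These were *Slamf6*, *Ly9*, *Sh2d1a*, and *Slamf1* (-0.76, limma adjusted p = 0.00499), while *Cd84* was at -1.11 (limma adjusted p = 0.0515). The exact test within 4 pairs cannot go below p = 0.125, so it could not decide on any member in the first experiment. In limma with the replicate block, 6 members passed there. These were *Slamf1* at -1.25, *Slamf6* at -2.22, *Ly9* at -0.33, *Cd84* at -1.20, *Sh2d1a* at 1.44, and *Sh2d2a* at 0.24.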
